A study of Mus musculus with 8 samples.

Results

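A pair of short hairpins against the same gene, Itgb3, were compared with each other in mouse leukaemia stem cells. Cells with the Itgb3-20 hairpin (2 arrays, numbered replicates 4 and 5) were set against cells with the Itgb3-17 hairpin (3 arrays, replicates 1 to 3), 5 arrays of the 8 in the series. The other 3 arrays held cells with a control hairpin against luciferase (Luc control). Cells of all groups carried the MLL-AF9 oncogene and came from C57BL/6 Actin-dsRed mice, from the bone marrow of leukaemic animals after a quaternary transplant. The sort gate kept dsRed-positive cells with little Hoechst dye that bore much c-kit and much Fc gamma receptor II as well as CD34. A probe entered the comparison if at least 2 of the 5 knockdown arrays detected it (detection p under 0.05), which kept 11457 of 45281 probes and 7234 named genes. A quaternary transplant is a leukaemia passed through successive recipients, so the donor mice were hosts of a transplanted leukaemia. The labels give neither the age of the animals nor the hairpin sequences. They also do not say if each array had its own mouse, so the spread behind the p-values is one between arrays and may be only technical.

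A short hairpin RNA is cut by Dicer into a small RNA that guides the Argonaute complex to matching messages. Hairpins of different sequence against the same gene share their target, but each can also pair with other messages through its seed and each can lower the target to a different depth. Itgb3 encodes the integrin beta 3 subunit, a surface receptor chain that pairs with an alpha chain to bind matrix proteins. MLL-AF9 is a fusion of a histone methyltransferase with a transcription elongation factor that keeps HOXA genes on in myeloid progenitors, and loss of its programme in such cells is known to go with maturation along the granulocyte and monocyte lineages.

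The knocked-down gene could not be read. Itgb3 had 1 probe, which was not above background on any of the 8 arrays (detection p from 0.324 to 0.912) and was not tested. Its log2 signal was 4.22 and 4.22 with Itgb3-20, at most 4.38 with Itgb3-17, and 4.28, 4.31 and 4.24 in the Luc controls. These values lie at the floor of the arrays, so the depth of the knockdown with either hairpin, and the labels, could not be checked from them. All levels here are log2 normalized signals of a probe, and all differences are Itgb3-20 minus Itgb3-17 on the log2 scale.

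Between 9632 and 11856 probes were above background on the 5 knockdown arrays, whose small number limits the precision. The Itgb3-20 arrays differed from each other more than the arrays of the other groups did. Of the tested probes, 267 (2.33%) differed by over 2-fold between Itgb3-20 replicates 4 and 5, against 6 to 13 probes between pairs of Itgb3-17 arrays and 38 to 124 between pairs of Luc control arrays. Between an Itgb3-20 and an Itgb3-17 array 126 to 266 probes did, and Itgb3-20 replicate 5 differed in fewer probes from Itgb3-17 replicates 1 (126) and 3 (127) than from Itgb3-20 replicate 4. The widest gap was at a probe of Hspa8, a constitutive chaperone, with 4.63 on replicate 4 and 8.63 on replicate 5. A probe of Actb, the cytoskeletal actin, went the other way, with 8.74 on replicate 4 and 4.86 on replicate 5.

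Between the hairpins, 30 probes were higher and 35 lower with Itgb3-20 (0.567% of the 11457 tested; 0.262% higher and 0.305% lower; limma, adjusted p under 0.05). At an unadjusted p under 0.05 there were 732 higher and 808 lower. The called probes named 57 genes, and 7 called probes are unnamed here. Differences of 2-fold or more made up 17 of the rises and 16 of the falls, and the called differences had sizes from 0.83 to 1.85. On each of the 65 called probes the Itgb3-20 and Itgb3-17 arrays did not overlap, which was also so for 30.3% of all tested probes. Against the Luc controls, which both comparisons share, 12.9% of the tested probes were called with Itgb3-20 and 15.1% with Itgb3-17.

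The count of calls depended on single arrays. It was 0 without Itgb3-17 replicate 2 (1155 probes at an unadjusted p under 0.05), 5 without replicate 3 and 11 without replicate 1. It was 71 without Itgb3-20 replicate 4 and 240 without replicate 5, of which 24 and 46 were among the 65. With median scaling in place of quantile normalization, 0 probes were higher and 2 lower, and the median difference of all tested probes moved to -0.16. The direction of the 65 calls was the same in each of these settings and in the other alternatives tried wherever the probe was tested. For the genes below, the number of the alternatives in which the call held is given out of the number in which the probe was tested.

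**Figure D1:**
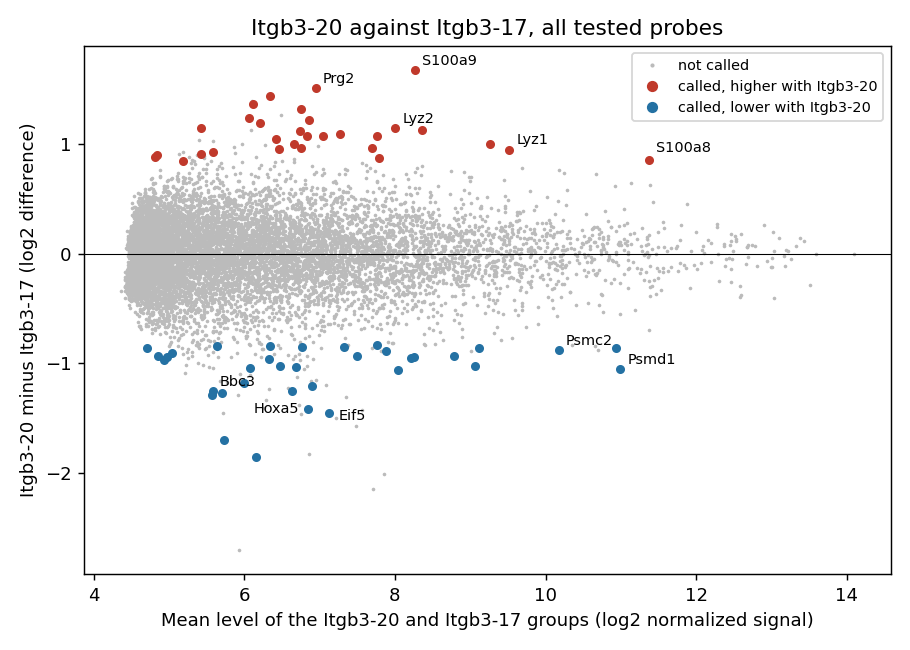
Each point is 1 of the 11457 tested probes, with the mean level of the Itgb3-20 and Itgb3-17 groups (log2 normalized signal) on the horizontal axis and the log2 difference Itgb3-20 minus Itgb3-17 on the vertical axis. The 30 called probes higher with Itgb3-20 (red) and the 35 lower (blue) lie between 0.83 and 1.85 in size, and several grey probes with larger differences were not called.

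Of the genes that mark maturing granulocytes, 3 were higher with Itgb3-20. S100a9 and S100a8 encode the subunits of calprotectin, the main cytosolic protein of neutrophils, and Pglyrp1 encodes a peptidoglycan-binding protein of their granules. S100a9 read 9.39 and 8.81 with Itgb3-20, against 7.36, 7.68 and 7.25 with Itgb3-17. Both Itgb3-20 arrays lay above every Itgb3-17 array, and the Luc controls (6.74, 7.25 and 7.39) lay with Itgb3-17. The difference was 1.67 ± 0.23 (SE), 3.19-fold (limma adjusted p = 0.0105; held in 15 of 19 alternatives). With fewer cells of a type and less RNA per cell, a signal from sorted bulk cells changes alike, and these cannot be told apart here.

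S100a8 was among the brightest probes called, at 11.84 and 11.75 with Itgb3-20, against 10.95, 10.94 and 10.94 with Itgb3-17. The groups did not overlap and the controls (10.95, 11.20 and 10.98) again lay beside Itgb3-17. The difference was 0.85 ± 0.16, 1.81-fold (SE; adjusted p = 0.034; held in 11 of 19). Pglyrp1 read 9.66 and 9.86 with Itgb3-20, against 8.75, 8.89 and 8.64 with Itgb3-17, a difference of 1.00 ± 0.17 (SE; adjusted p = 0.021; held in 13 of 19). Its controls, at 8.63, 8.42 and 8.62, lay below the Itgb3-20 arrays too. Another probe of Pglyrp1, above background on 1 Itgb3-20 array and 2 Itgb3-17 arrays, was at -0.08 (adjusted p = 0.923).

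Of 29 late granulocyte genes on the array 19 were tested, and 3 were called higher and 0 lower. By their brightest probe, 0.677% of all genes were called, 0.332% higher and 0.346% lower. At an unadjusted p under 0.05, 9 were higher and 0 lower. The median over the list was 0.43, beside 0.01 over all 7234 genes, and the Itgb3-20 arrays lay above all Itgb3-17 arrays for 11 of the 19, beside 16.4% of all genes. Lcn2, the iron-chelator-binding lipocalin of specific granules, was at 0.81 (adjusted p = 0.0695) and did not pass. Cebpe, the transcription factor needed for those granules, was at 0.49 (0.182) and Cd177, a neutrophil surface protein, at 0.58 (0.174). Ltf and Camp, which are also stored in specific granules, were at 0.03 (0.971) and 0.21 (0.791). The summed linear signal of the 19 genes was 10370 and 10026 with Itgb3-20, against 6979 to 7075 with Itgb3-17 and 6125 to 6778 in the Luc controls. This sum includes the 3 called genes, S100a8 with its bright probe among them, so it is not separate from the calls. The 3 calls became 1 without Itgb3-17 replicate 1, and 0 without replicate 2 or 3, with medians of 0.42 to 0.46 in those fits.

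The 3 tested members of the stefin family called higher, and 2 lysozymes, are genes of mature myeloid cells. Lyz2, the lysozyme of macrophages and neutrophils, read 8.56 and 8.58 with Itgb3-20, against 7.64, 7.29 and 7.37 with Itgb3-17, a difference of 1.14 ± 0.18 (SE; adjusted p = 0.0154; held in 15 of 19). Lyz1, its neighbour in the genome, read 10.05 and 9.93 with Itgb3-20, against 9.25, 9.09 and 8.80 with Itgb3-17, a difference of 0.94 ± 0.18 (adjusted p = 0.0336; held in 11 of 19). Neither pair of groups overlapped, but the controls differed between the genes. Lyz2 in the controls (7.71, 7.63 and 7.29) overlapped the Itgb3-17 arrays, while Lyz1 (7.89, 8.03 and 7.92) lay below both hairpins. A second, dim probe of Lyz2 was at 0.08 (adjusted p = 0.911). These genes are near-identical copies, so which of them a probe reads is uncertain.

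Stefins are small inhibitors of cathepsins, encoded in a cluster of near-identical genes and abundant in mouse neutrophils. Stfa2 read 8.76 and 9.08 with Itgb3-20, against 7.85, 7.98 and 7.55 with Itgb3-17 (difference 1.13 ± 0.21, SE; adjusted p = 0.0336; held in 11 of 19). Csta2 was at 1.15 (0.0312) and Cstdc5 at 1.07 (0.042). For these 3 genes the Itgb3-20 arrays lay above all Itgb3-17 arrays. Csta3 and Cstdc4 were at 1.03 (0.0684) and 0.73 (0.079) and did not pass. Of 11 tested stefins and cystatins 3 were called higher and 0 lower, beside 0.332% and 0.346% of all genes, and 5 were higher and 1 lower at an unadjusted p under 0.05, with a median of 0.42. The 3 calls became 0 without Itgb3-17 replicate 1, 2 or 3 and 1 without Itgb3-20 replicate 4. Cst3 and Cst7, cystatins outside the cluster, were both at 0.01. Cstb, another stefin, was at -0.51 (0.201), with its Itgb3-20 arrays below all Itgb3-17 arrays. This list was chosen after its values were seen, and cross-hybridisation between its members was not tested.

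Fcgr3, a low-affinity receptor for IgG on myeloid cells, read 7.33 and 7.60 with Itgb3-20, against 6.42, 6.16 and 6.16 with Itgb3-17. The groups did not overlap, and the controls (6.12, 6.51 and 6.64) lay nearer to Itgb3-17. The difference was 1.22 ± 0.19 (SE; adjusted p = 0.0147; held in 15 of 19). Fcgr3 was listed with the sort gate genes, as were Fcgr2b, Kit and Cd34. Fcgr2b, whose product is Fc gamma receptor II of the sort gate, was at -0.14 (0.779) by its brightest probe. Kit, the receptor of the gate, was at 0.26 (0.606). Cd34 had 1 probe, above background on 1 knockdown array, and was not tested.

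Prg2, the major basic protein of eosinophil granules, followed another pattern. It read 7.60 and 7.80 with Itgb3-20, against 6.41, 5.93 and 6.25 with Itgb3-17, a difference of 1.51 ± 0.18 (SE; adjusted p = 0.0105; held in 16 of 19). Here the controls, at 7.46, 7.35 and 7.20, lay just below Itgb3-20 and far above Itgb3-17. The difference from the controls was 0.36 with Itgb3-20 (adjusted p = 0.218) and -1.14 with Itgb3-17 (0.00158). Prg2 was the sole tested member of 13 eosinophil markers on the array.

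**Figure D2:**
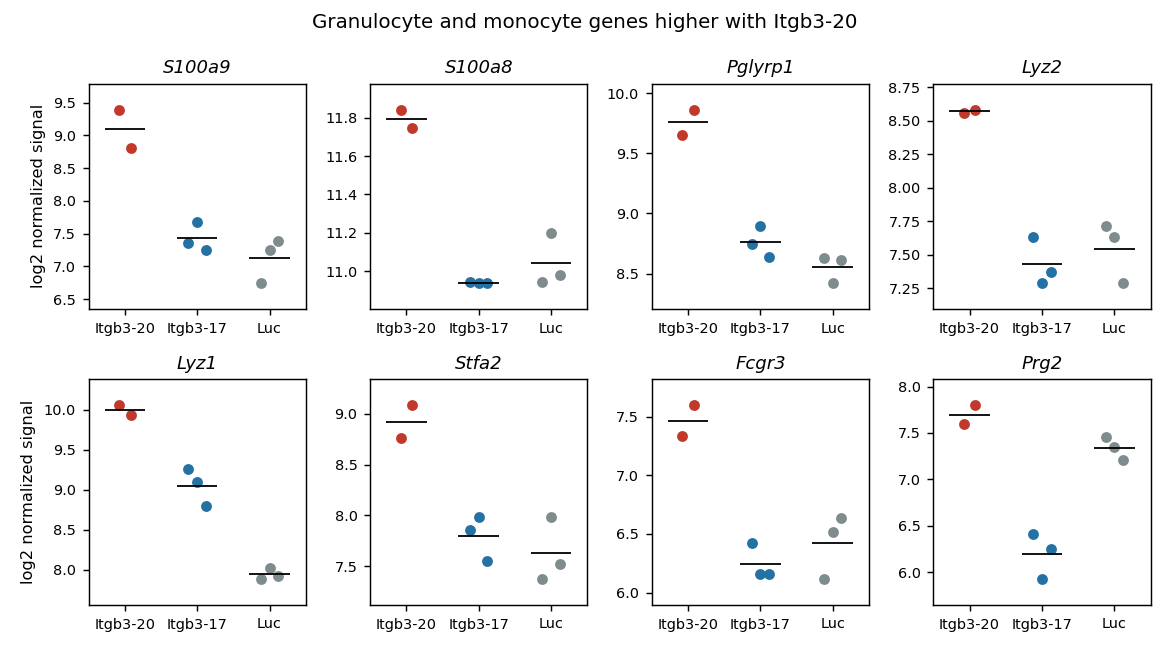
Level of 8 genes on each array (log2 normalized signal, own axis per gene), with Itgb3-20 (red, 2 arrays), Itgb3-17 (blue, 3 arrays) and Luc control (grey, 3 arrays); lines are group means. In each panel both Itgb3-20 arrays lie above all Itgb3-17 arrays, and the controls lie beside Itgb3-17 for S100a9 and Lyz2, below both hairpins for Lyz1, and near Itgb3-20 for Prg2.

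The promoters of 4 of these genes are shown because they differ in a short sequence that C/EBP factors bind, the family that drives granulocyte and monocyte genes. The letters TTGCNNAA were searched on both strands in the 250 bases before each start site of a RefSeq table (GRCm38.p6), after the values were seen. They were found in 7 of 21 genes called higher (33.3%) and in 2 of 25 called lower (8%). Of 18 tested late granulocyte genes 5 held them (27.8%), as did 10.8% of all 27025 genes, tested or not. Only genes with a window were counted. This left out Prg2, Cox6a2, Mapre2, H2-Ab1, Cfap97 and Smim19 among the genes called higher. Among those called lower it left out Iscu, Osm, Eya1, Txnl4a and B230308N11Rik. The matches, in capitals, began at base -236 of S100a9, -209 of Lyz1 and -28 of Fcgr3, counted back from the start site, and the window of Lyz2 held none. The Lyz1 and Lyz2 windows were identical at 200 of 252 aligned columns (79.4%). The other genes called higher with a match were Abcc4, Cstdc5, H2bc6 and Rab29, and those called lower were Creg1 and Gaa. A match describes these letters in this window and does not show that a factor binds there.
S100a9 promoter, GRCm38.p6 chr3:90695722-90695971, minus strand: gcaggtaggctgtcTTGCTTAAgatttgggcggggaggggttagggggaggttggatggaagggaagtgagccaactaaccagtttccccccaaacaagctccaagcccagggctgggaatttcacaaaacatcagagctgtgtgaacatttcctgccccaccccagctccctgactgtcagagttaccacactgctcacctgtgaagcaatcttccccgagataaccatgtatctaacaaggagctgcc
Fcgr3 promoter, GRCm38.p6 chr1:171059404-171059653, minus strand: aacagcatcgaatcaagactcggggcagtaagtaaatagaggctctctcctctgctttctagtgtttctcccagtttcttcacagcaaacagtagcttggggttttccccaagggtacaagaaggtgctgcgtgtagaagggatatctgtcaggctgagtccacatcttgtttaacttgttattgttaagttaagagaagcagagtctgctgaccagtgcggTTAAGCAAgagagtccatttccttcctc
Lyz1 promoter, GRCm38.p6 chr10:117292869-117293118, minus strand: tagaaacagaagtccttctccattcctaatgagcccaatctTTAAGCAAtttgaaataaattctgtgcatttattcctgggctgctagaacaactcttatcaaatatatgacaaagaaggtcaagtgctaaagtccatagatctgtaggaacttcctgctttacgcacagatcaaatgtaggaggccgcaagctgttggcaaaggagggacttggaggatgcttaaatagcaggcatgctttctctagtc
Lyz2 promoter, GRCm38.p6 chr10:117282273-117282522, minus strand: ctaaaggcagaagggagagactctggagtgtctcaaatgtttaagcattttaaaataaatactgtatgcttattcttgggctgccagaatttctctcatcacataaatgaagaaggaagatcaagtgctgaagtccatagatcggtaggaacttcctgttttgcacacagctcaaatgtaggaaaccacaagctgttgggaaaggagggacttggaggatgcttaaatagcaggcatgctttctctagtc

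Among the other genes called higher, several had controls that lay with Itgb3-20. Cox6a2, the striated muscle form of a cytochrome c oxidase subunit, read 6.57 and 6.79 with Itgb3-20, against 5.25, 5.47 and 5.61 with Itgb3-17 (difference 1.24 ± 0.17, SE; adjusted p = 0.0105; held in 16 of 19). Its controls, at 6.55, 6.74 and 6.61, overlapped the Itgb3-20 arrays. Fam162a, a mitochondrial protein induced by hypoxia, read 6.73 and 6.87 with Itgb3-20, against 5.69, 5.49 and 5.63 with Itgb3-17 (1.19 ± 0.19; adjusted p = 0.0147), and its controls (6.38, 6.94 and 6.58) also overlapped Itgb3-20. Rab29, a small GTPase of the endolysosomal system, shared this pattern, at 0.13 against the controls with Itgb3-20 (adjusted p = 0.713) and -0.92 with Itgb3-17 (0.00387).

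Mapre2, which binds the growing ends of microtubules, read 7.25 and 6.87 with Itgb3-20, against 5.51, 5.59 and 5.78 with Itgb3-17 (1.44 ± 0.21, SE; adjusted p = 0.0105; held in 14 of 19). Its controls, 6.47, 5.90 and 6.48, lay between the hairpins without overlap on either side. Rpl3l, a muscle relative of a ribosomal protein, was at 1.11 (0.0147), with the controls beside Itgb3-17. Also called higher were Smpd1, the acid sphingomyelinase of lysosomes (1.07), Plekho2, a pleckstrin homology protein (0.99), Chac1, an enzyme that degrades glutathione (0.96), H2-Ab1, a class II antigen presentation chain (0.96), Cfap97 (0.95), Abcc4, an export pump (0.92), Kif1b, a kinesin motor (0.91), Smim19 (0.87) and Gyg, the primer of glycogen synthesis (0.84). A probe of Cmtm8 was not above background on the Itgb3-17 arrays and was at least 1.55-fold higher with Itgb3-20 (adjusted p = 0.0446). The brightest Cmtm8 probe, above background on 2 Itgb3-17 arrays, was at 0.19 (0.715), and its groups overlapped. For the called probes of all these genes the groups did not overlap, as for each called probe.

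Replication-dependent histone genes were among the higher calls. H1f2, a linker histone, read 7.84 and 7.78 with Itgb3-20, against 6.80, 6.52 and 6.84 with Itgb3-17 (1.09 ± 0.17, SE; adjusted p = 0.0147; held in 13 of 19). A probe of H2bc6, a core histone, was at 1.07 (0.021), and its brighter probe was at 0.66 (0.102). By the brightest probe of each gene, 1 of 43 histone genes was called higher and 0 lower, beside 0.332% and 0.346% of all genes, and 23 were higher and 1 lower at an unadjusted p under 0.05. The median was 0.47. Among those that did not pass, H3c4 was at 0.80 and H3c6 at 0.75 (adjusted p = 0.0663 and 0.0619). With the mean of each gene's probes 6 histone genes were called higher, H3c4 (0.0424) and H3c6 (0.0329) among them. The list was chosen after its values were seen, and many of its genes are near-identical copies within a histone family. Histone signal summed to 61913 on Itgb3-20 replicate 4 and 36158 on replicate 5, against 50443 to 58927 with Itgb3-17, so the Itgb3-20 arrays lay on either side of the others. Without Itgb3-20 replicate 5 the histone calls were 6 higher, without replicate 4 they were 1 higher and 2 lower, and without any 1 of the Itgb3-17 arrays they were 0. Of 48 G1/S and DNA replication genes, 0 were called (1 higher and 2 lower at an unadjusted p under 0.05).

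The HOXA gene Hoxa5, a homeobox factor kept on by MLL-AF9, was lower with Itgb3-20. It read 5.79 and 6.48 with Itgb3-20, against 7.48, 7.44 and 7.74 with Itgb3-17 and 8.11, 8.22 and 8.13 in the controls. The 3 groups did not overlap and Itgb3-17 lay between the other groups. The difference between the hairpins was -1.41 ± 0.20 (SE; adjusted p = 0.0105; held in 15 of 19), beside -2.02 with Itgb3-20 (0.000268) and -0.60 with Itgb3-17 (0.0385) against the controls. A probe of Eya1, a phosphatase and coactivator, read 4.45 and 5.41 with Itgb3-20, against 6.52, 6.32 and 5.79 with Itgb3-17 (-1.28 ± 0.26; adjusted p = 0.0446; held in 6 of 18). The brighter probe of Eya1 was at -0.48 (0.46).

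Of 20 tested MLL-AF9 targets, 0 were called higher and 1 lower by their brightest probe, beside 0.332% and 0.346% of all genes, and 0 were higher and 5 lower at an unadjusted p under 0.05. The median was -0.17, and -0.02 without Itgb3-20 replicate 5, where 3 were called lower; without replicate 4 there were 2. Without Itgb3-17 replicate 2 or 3 there were 0. Hoxa9, the neighbour of Hoxa5 and a main effector of the fusion, was at -0.75 (adjusted p = 0.276) and Mef2c, a transcription factor of the programme, also at -0.75 (0.32). The Itgb3-20 arrays disagreed on both, in opposite ways. On replicates 4 and 5 Hoxa9 read 4.96 and 6.33, against 6.20, 6.62 and 6.36 with Itgb3-17. Mef2c read 7.21 and 5.74, against 7.15, 7.47 and 7.07. Meis1 and Myb, further factors of that programme, were at 0.08 (0.885) and 0.39 (0.463). Fli1, an ETS factor of stem and megakaryocyte cells, was at -0.86 (0.0705), and Gata2, a zinc finger factor, at 0.69 (0.0934).

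Targets of p53 and cell cycle inhibitors included 3 falls. Cdkn1a, which encodes the cyclin-dependent kinase inhibitor p21, read 7.21 and 6.84 with Itgb3-20, against 8.03, 8.04 and 7.81 with Itgb3-17 (-0.93 ± 0.18, SE; adjusted p = 0.0336; held in 10 of 19). Bbc3, which encodes the BH3-only killer PUMA, read 4.60 and 5.31 with Itgb3-20, against 6.40, 6.18 and 6.05 with Itgb3-17 (-1.25 ± 0.22; adjusted p = 0.0305; held in 11 of 18). For both genes the hairpin groups did not overlap, and the controls lay with Itgb3-20. The controls were at 7.12, 7.08 and 6.96 for Cdkn1a and at 4.71, 5.20 and 5.01 for Bbc3, and against them Bbc3 was at 1.24 with Itgb3-17 (0.00218).

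Ccng1, the cyclin G1 gene, differed in where its controls lay, by its called probe. That probe read 6.05 and 6.53 with Itgb3-20, against 7.66, 7.48 and 7.35 with Itgb3-17 and 7.71, 7.35 and 7.32 in the controls, so that Itgb3-20 stood alone (-1.20 ± 0.20, SE; adjusted p = 0.0174; held in 12 of 19). Other probes did not pass. Those of Ccng1 were at -0.59 and -0.51, with controls of 6.54, 6.33 and 5.95 on the one and 5.14, 4.60 and 5.03 on the other, which lay with or below Itgb3-20. The uncalled probes of the other genes gave smaller differences, those of Cdkn1a at -0.41 and -0.27, and that of Bbc3, near background, at -0.00. Over the list, 3 of 22 tested genes were called lower and 0 higher, beside 0.346% and 0.332% of all genes, with 7 lower and 1 higher at an unadjusted p under 0.05 and a median of -0.15. The 3 calls became 0 without Itgb3-17 replicate 1, 2 or 3 and 1 without Itgb3-20 replicate 4. Mdm2, the ligase that limits p53, was at -0.43 (0.31), and Cdkn1c, another inhibitor, at 0.70 (0.0663). With the mean of each gene's probes, 1 was lower, Ccng1 (0.0464), and 1 higher, Cdkn1c (0.0404).

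Of the proteasome genes, 5 were lower with Itgb3-20. The proteasome is the barrel-shaped protease that degrades ubiquitin-tagged proteins; Psmb6 and Psma5 form part of its core, Psmc2 and Psmc5 are ATPases of its cap, and Psmd1 is the cap's scaffold. Psmd1 read 10.63 and 10.30 with Itgb3-20, against 11.42, 11.38 and 11.75 with Itgb3-17 (-1.05 ± 0.19, SE; adjusted p = 0.0312; held in 11 of 19). Psmc2 read 9.68 and 9.79 with Itgb3-20, against 10.71, 10.58 and 10.55 with Itgb3-17 (-0.88 ± 0.16; adjusted p = 0.0336; held in 11 of 19). Neither pair of groups overlapped, and the Psmc2 controls, at 9.57, 9.61 and 9.76, lay with Itgb3-20. Psmb6 was the one gene with a pair of called probes, at -1.06 and -0.94 (both 0.0354). Psma5 was at -0.86 (0.0374) and Psmc5 at -0.85 (0.0358).

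Of 37 tested proteasome subunits and assembly factors, 5 were called lower and 0 higher, beside 0.346% of all genes called lower, and 18 were lower and 1 higher at an unadjusted p under 0.05. The median was -0.39, 31 of the 37 lay below 0 (48% of all genes did), and the Itgb3-20 arrays lay below all Itgb3-17 arrays for 23 (15% of all genes). Psma7, a core subunit, was at -0.77 (0.0587) and Psmb3 at -0.78 (0.0833). Psmc4, an ATPase of the cap, went the other way at 0.78 (0.0695). The summed linear signal of the list, its 5 called genes included, was 18075 and 18498 with Itgb3-20, against 26143 to 27184 with Itgb3-17 and 19643 to 20260 in the controls. Against the controls the list's median was -0.02 with Itgb3-20 (3 called higher, 4 lower) and 0.35 with Itgb3-17 (13 higher, 3 lower). The list was chosen after its values were seen. The 5 calls fell to 0 without Itgb3-17 replicate 1, 2 or 3, to 1 without Itgb3-20 replicate 4, to 2 without Luc control replicate 2 and to 3 without Luc control replicate 3, while the list's median stayed between -0.41 and -0.30 in these fits. With the mean of each gene's probes 5 were lower and 1 higher, and Psmd1 was no longer called. TGACNNNGC is the core of the antioxidant response element through which NRF factors raise proteasome genes. It was found on either strand before 3 of the 31 of these genes with a promoter window (9.68%), Psmb6 among them. Of all genes with a window, 11.5% had it.

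**Figure D3:**
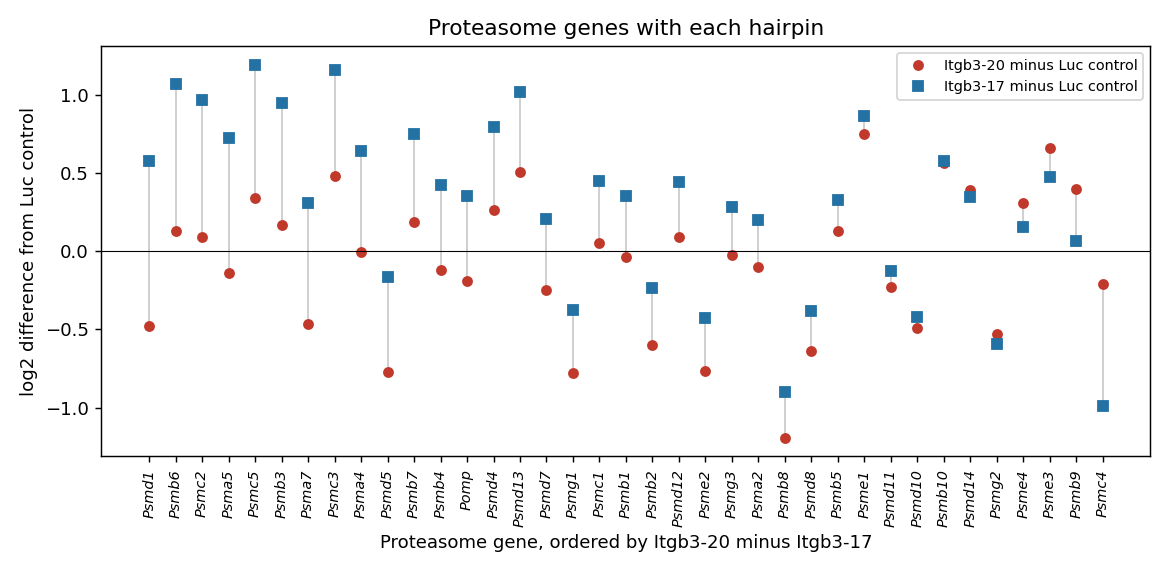
Log2 difference from the Luc controls of 37 proteasome genes with Itgb3-20 (red circles) and Itgb3-17 (blue squares), ordered by the difference between the hairpins; both share the controls. The Itgb3-20 point lies below the Itgb3-17 point for 31 genes, and Psmc4 at the right end has the largest gap the other way (0.78).

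Genes of protein synthesis were also among the falls. A probe of Eif5, the factor that triggers GTP hydrolysis at the start codon, read 6.67 and 6.13 with Itgb3-20, against 7.65, 8.05 and 7.86 with Itgb3-17 (-1.45 ± 0.22, SE; adjusted p = 0.0147; held in 16 of 19). Eprs, which charges glutamate and proline onto their tRNAs, read 5.44 and 5.38 with Itgb3-20, against 6.70, 6.60 and 6.48 with Itgb3-17 (-1.18 ± 0.16; adjusted p = 0.0105). It held in 17 of 19 alternatives, the most of any called probe with a name. On these probes Itgb3-20 stood apart, with controls of 8.05, 8.17 and 7.54 for Eif5 and 6.82, 6.85 and 6.85 for Eprs. Their other probes did not pass, at -0.67 and -0.54 for Eif5 and -0.26 for Eprs, and placed the controls elsewhere. The brightest Eif5 probe read 9.26 and 9.55 with Itgb3-20, 10.06, 10.04 and 10.13 with Itgb3-17 and 9.62, 9.50 and 9.66 in the controls, which lay nearer to Itgb3-20. The controls of the other Eprs probe, 4.46, 4.76 and 4.52, overlapped its Itgb3-20 arrays.

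Eif2b2, a subunit of the exchange factor that the integrated stress response acts on, was at -0.88 (0.0336). By the brightest probe of each gene, it was the sole call among 37 translation factors, beside 0.346% of all genes called lower. Nop58, a core protein of small nucleolar ribonucleoproteins, was at -0.95 (0.0446), the sole call among 38 Myc targets and ribosome biogenesis genes. The median of these was -0.13, beside 0.01 over all genes, with 30 of 38 below 0, beside 48% of all genes. Rrp36 (-0.91) and a probe of Ddx27 (-1.02), genes both needed for ribosomal RNA processing, were called as well. The brightest Ddx27 probe was at -0.60 (0.179) and did not pass. On it the controls (7.66, 7.94 and 7.83) overlapped Itgb3-17. None of 52 cytosolic ribosomal protein genes was called by limma (1 higher and 0 lower at an unadjusted p under 0.05).

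Calr, the calreticulin chaperone of the endoplasmic reticulum, read 4.50 and 5.63 with Itgb3-20, against 6.36, 6.39 and 6.26 with Itgb3-17 (-1.27 ± 0.26, SE; adjusted p = 0.0426; held in 7 of 18). By the brightest probe of each gene it was the call of the primary granule list, where 14 genes were tested, beside 0.346% of all genes called lower. Mpo, the myeloperoxidase of primary granules, was then at 0.64 (0.122). With the mean of its probes Mpo was at 0.65 (0.0463) and was called higher. Gaa, the lysosomal enzyme that breaks down glycogen, was at -1.25 (0.025), and Osm, a cytokine of the interleukin 6 family, at -1.03 (0.0147). Also called lower were Hmgb2, a DNA-bending protein (-1.04), Ezh2, the histone methyltransferase of Polycomb (-0.84), and Baz2b, a bromodomain protein. The called probe of Baz2b was not above background on the Itgb3-20 arrays and was at least 1.71-fold lower with Itgb3-20 (0.046). The brightest Baz2b probe, above background on both Itgb3-20 arrays, was at -0.94 (0.0833) and did not pass.

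Hmgb2 and Ezh2 were ordered like Hoxa5 by their called probes. Hmgb2 read 5.32 and 5.78 with Itgb3-20, 6.52, 6.70 and 6.55 with Itgb3-17, and 7.18, 7.47 and 7.14 in the controls. Ezh2 read 5.27 and 5.18 with Itgb3-20, 6.00, 6.05 and 6.14 with Itgb3-17, and 6.55, 6.59 and 6.65 in the controls. In both genes no group overlapped another, and both hairpins were called below the controls. The remaining falls were those of Iscu, the scaffold of iron-sulphur cluster assembly (-1.02), Mreg (-0.96), Map2k3, a kinase of the p38 pathway (-0.93), Hsd3b7, an enzyme of bile acid synthesis (-0.86), Txnl4a, a spliceosome protein (-0.85, with its brightest probe at 0.30), Creg1 (-0.84), Gtse1 (-0.83) and B230308N11Rik, which was not above background on the Itgb3-20 arrays (at least 1.57-fold lower, adjusted p = 0.0336).

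**Figure D4:**
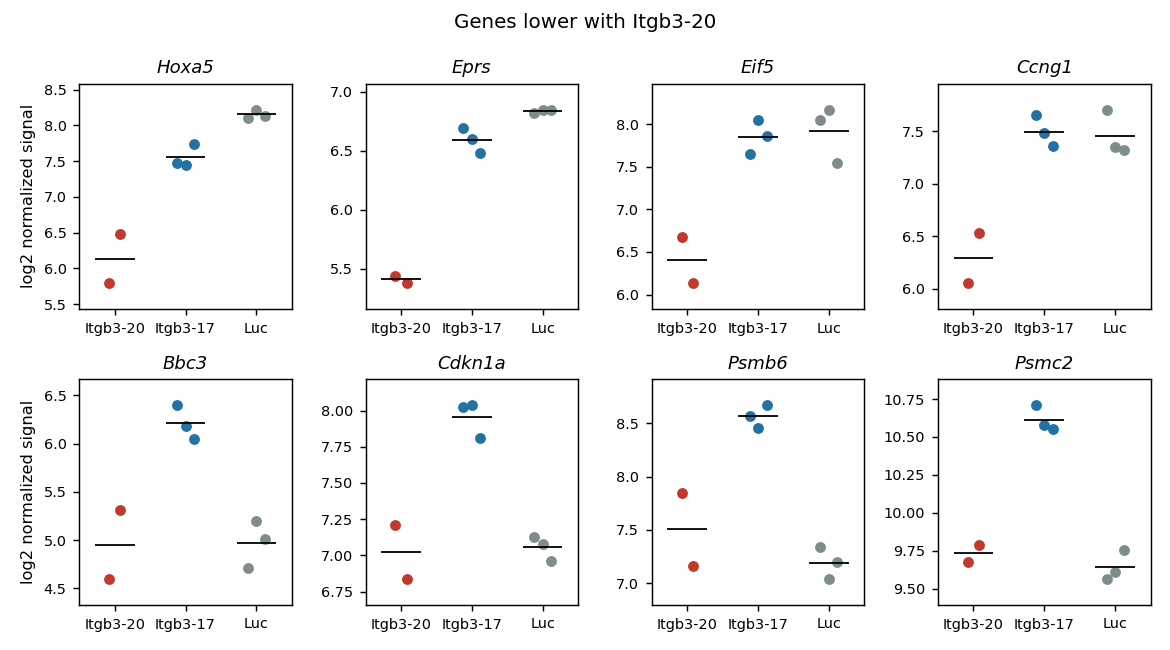
Level of 8 genes called lower with Itgb3-20 on each array (log2 normalized signal, own axis per gene), with Itgb3-20 (red, 2 arrays), Itgb3-17 (blue, 3 arrays) and Luc control (grey, 3 arrays); lines are group means. Both Itgb3-20 arrays lie below all Itgb3-17 arrays in each panel; the controls lie above both hairpins for Hoxa5, with Itgb3-17 for Ccng1, and with Itgb3-20 for Bbc3.

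The controls lay in different places among the called probes. For 24 of the 30 higher and 20 of the 35 lower probes the Luc mean lay between the hairpin means, for 6 of the higher and 5 of the lower it lay below both, and for 10 of the lower it lay above both. It was nearer to Itgb3-20 for 11 of the higher and 17 of the lower calls. The same counts were not made over all tested probes. Calls were picked for a wide gap between the hairpins, which by itself favours a control mean between them.

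Among the lists with 0 calls were those tied to the target and to the method. Of 8 tested integrin subunits and 27 genes of integrin signalling, limma called 0 (1 and 9 at an unadjusted p under 0.05). The lowest p in the signalling list was that of Pik3r1, the regulatory subunit of PI3 kinase, at -1.16 (adjusted p = 0.0663). Of 15 tested genes of hairpin processing and RNA interference, such as Dicer1 (-0.17 by its brightest probe, adjusted p = 0.802), 0 were called and 0 had an unadjusted p under 0.05. Of 21 interferon response genes, which double-stranded RNA can induce, 0 were called, with 3 higher and 5 lower at an unadjusted p under 0.05. Oxidative phosphorylation (61 tested), cholesterol synthesis (22), glycolysis and hypoxia (24), NF-kB (12) and actin cytoskeleton genes (37) also had 0 calls by limma, with 7, 4, 8, 0 and 5 genes, in that order, at an unadjusted p under 0.05.

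**Figure D5:**
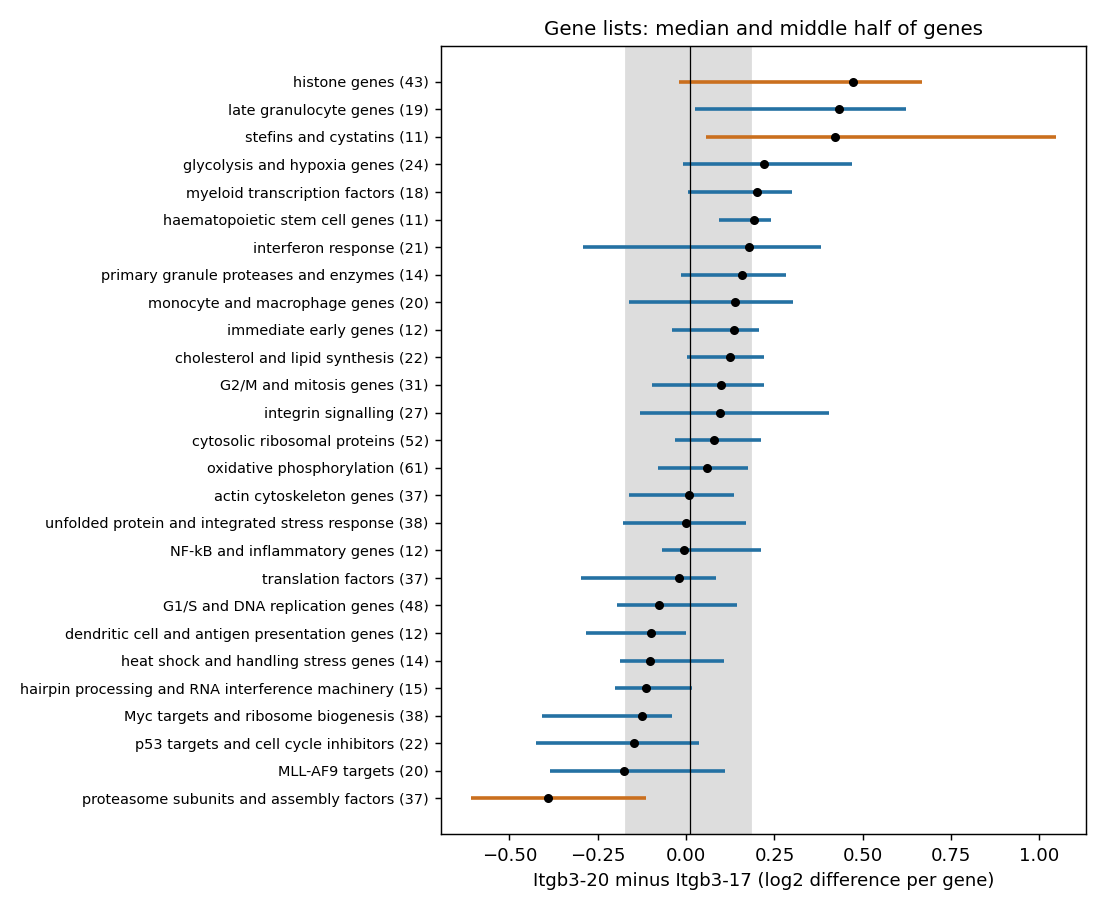
Median (black point) and interquartile range (bar) of the log2 difference Itgb3-20 minus Itgb3-17 over the tested genes of each list with at least 10, with the number tested in brackets; the grey band and line are the interquartile range and median of all 7234 genes. Orange bars are the 3 lists chosen after their values were seen; the proteasome list has the lowest median (-0.39) and the histone (0.47), late granulocyte (0.43) and stefin (0.42) lists the highest.

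Markers of other cell types were mostly not above background. Of the markers on the array, 4 of 24 were tested for erythroid cells, 2 of 20 for B cells, 5 of 24 for T cells, 3 of 22 for NK cells, 6 of 26 for megakaryocytes and platelets, 9 of 24 for mast cells and basophils and 5 of 32 for stromal and endothelial cells, and limma called 0 of these (0 to 4 in each list at an unadjusted p under 0.05). Their summed linear signals overlapped between the hairpin groups for erythroid (1808 and 2093 with Itgb3-20, 1689 to 1842 with Itgb3-17) and megakaryocyte markers (1531 and 1846 against 1709 to 1832). The T cell sum was 1850 and 1655 with Itgb3-20, against 1306 to 1401 with Itgb3-17 and 1118 to 1424 in the controls. Its part in the results was not tested. Of 20 tested monocyte and macrophage genes, 2 were called higher, the lysozymes above, beside 0.332% of all genes. Among the others Ly86, a partner of a toll-like receptor relative, was at -0.58 (adjusted p = 0.139) and Fcgr4, an IgG receptor of monocytes and neutrophils, at 0.52 (0.197). Of 12 dendritic cell and antigen presentation genes, 1 was called higher, H2-Ab1, beside 0.332% of all genes. In that list 9 lay below 0, beside 48% of all genes, and the median was -0.10.

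Probes of the same gene did not always move together. Of the 57 named genes with a called probe, 25 had another tested probe, and Psmb6 was the one with 2 called. In 19 of the others the uncalled probes all had the sign of the called one, and in 5 a probe had the opposite sign. The largest called falls were at unnamed probes, the probe ILMN_1247996 at -1.85 (5.12 and 5.33 with Itgb3-20, against 6.62, 7.67 and 6.93 with Itgb3-17; adjusted p = 0.0174) and ILMN_1230073 at -1.70 (0.0336). When the mean of all tested probes stood for a gene, an alternative not counted in the tallies above, 52 genes were higher and 34 lower. Of the 57 named genes, 44 were still called and 13 were not: Lyz2 (adjusted p = 0.0923), Pglyrp1 (0.211), Bbc3 (0.0953), Cdkn1a (0.117), Psmd1 (0.0669), Ezh2 (0.0932), Eya1 (0.117), Gtse1 (0.0963), Cmtm8 (0.125), Gyg (0.168), Kif1b (0.191), H2-Ab1 (0.251) and Txnl4a (0.396). Of the late granulocyte genes, S100a9, S100a8 and Lcn2 (0.0489) were then called.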

How the data were processed

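Expression was measured on Illumina bead arrays hybridised with biotin-labelled total RNA isolated with Trizol, per the labels' protocols. The average bead intensity of each probe was deposited by the authors without normalization, per the file headers, with a detection p-value for each probe and array whose method is not given in the sources used here. The authors also deposited log2 values of these arrays. These had the rank order of the signals on each array (Spearman 1) and a median of 6.61 on every array. Their scale fits log2, their centring and any offset stay unknown, and they served only as an alternative.

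Signals of all 8 arrays were corrected by neqc in limma 3.58.1 (R 4.3.3), which is normexp with an offset of 16, quantile normalization and log2. A limma fit of 3 group means to the 8 arrays (lmFit and eBayes, two-sided) gave Itgb3-20 minus Itgb3-17, with Benjamini-Hochberg adjustment over the 11457 tested probes and a call at 0.05. The median standard error was 0.19. This fit takes the spread of a probe to be equal in the 3 groups, though the Itgb3-20 arrays differed most from each other. The standard errors and p-values may thus understate the error of the Itgb3-20 mean. With array weights, lowest for the Itgb3-20 arrays (0.645 each), 21 probes were called. The fit was tested on simulated data. With 1 array of a group left out, the remaining Itgb3-20 array was assumed to vary like the other groups.

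Gene names came from the array's annotation, with 34885 probes of 1 symbol, 18 of several and 10378 of none, of which 34807 matched a RefSeq gene (GRCm38.p6) and 0 changed symbol. The probe of highest mean over the 5 knockdown arrays stood for a gene. A probe undetected in a whole group has only a bound on its fold. For that group, each array contributed either its own value or the dimmest detected signal of the array, whichever was larger, before averaging.

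The probes, the 35 gene lists and 3 lists added later were chosen with earlier results of these data known. Named genes were Itgb3, the 12 largest rises and 12 largest falls among called probes, the members with the lowest p of every list of 5 or more (up to 4), the sort gate genes and the probes of widest gap between the Itgb3-20 arrays. Other genes named, among them the remaining called genes, Mpo, Ltf, Camp, Meis1, Myb, Dicer1, Cst3, Cst7 and the histone and proteasome members beyond the lowest p, were chosen after their values were seen. Alternatives were no background correction, an offset of 50, median scaling, the authors' values, other filters on dim probes, the 5 knockdown arrays alone, trended robust moderation, array weights, each array left out, and the mean of a gene's probes. The labels give no slide or scan, so batches could not be examined.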

Additional observations from a re-analysis of the deposited data

Results flagged for a closer look

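The 2 hairpins against Itgb3 differed at 65 probes by limma, a difference between groups under the same contrast with the Luc controls. On the called probe of 17 named genes among them, both Itgb3-20 arrays lay on one side of all 3 Luc control arrays and all 3 Itgb3-17 arrays on the other. With Itgb3-20 above and Itgb3-17 below the controls these were Prg2 (difference between the hairpins 1.51), Mapre2 (1.44), Csta2 (1.15), H1f2 (1.09), Smpd1 (1.07), Chac1 (0.96), H2-Ab1 (0.96), Abcc4 (0.92), Kif1b (0.91) and Smim19 (0.87). With Itgb3-20 below and Itgb3-17 above the controls they were Psmd1 (-1.05), Osm (-1.03), Baz2b (-0.94), B230308N11Rik (-0.93), Map2k3 (-0.93), Eif2b2 (-0.88) and Gtse1 (-0.83). The difference between the hairpins was the tested value in each case (adjusted p under 0.05). How many of all tested probes had this order was not counted. A call needs a wide gap between the hairpins, which by itself leaves room for controls inside it. Other tested probes did not all show this order: on the brightest probe of Kif1b the controls (7.58, 7.76 and 7.73) lay above both hairpins, on that of Baz2b they overlapped Itgb3-17, on another probe of Psmd1, Smpd1 and H2-Ab1 they overlapped Itgb3-20, and on that of Gtse1 they lay below both hairpins.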

How the results depend on the processing

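Against 65 calls (30 higher, 35 lower), limma called 206 probes (110 higher, 96 lower) with no background correction, 147 (77 and 70) with an offset of 50, 230 (110 and 120) with the authors' deposited values and 184 (88 and 96) with trended robust moderation. It called 2 (0 and 2) under median scaling, where the median of all tested probes moved to -0.16, 1 (0 and 1) when dim probes were kept, 16 (11 and 5) with the 5 knockdown arrays alone and 21 (13 and 8) with array weights. Stricter filters gave 56 and 55 calls, and a filter over all 8 arrays 71. Leaving out 1 array gave 0 to 240 calls, 0 to 70 higher and 0 to 170 lower, with 47 to 79 calls when a Luc control array was left out. The cause of these changes was not tested. The authors' values kept 64 of the 65 calls and no background correction kept 56. No called probe changed direction in any alternative in which it was tested, the mean of a gene's probes aside. Among the uncalled second probes named here, that of Lyz2 turned to -0.029 under median scaling, and those of Lyz2 (-0.14 to 0.29), Pglyrp1 (-0.36 to 0.21), Bbc3 (-0.026 to 0.081) and Eya1 (-0.97 to 0.035) crossed 0 when an array was left out.

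No paired fit of the 2 hairpins was possible because they share no replicate number. For Itgb3-17 minus Luc control, a fit of 6 arrays with the replicate block called 2290 probes and one without it 2206. Same-numbered arrays correlated at 0.0338, -0.0322 and -0.00851 in their deviations from the group means. Differently numbered arrays correlated at -0.0704 to 0.0832. The labels do not say if equal numbers mark paired samples, and correlations from 3 arrays per group cannot decide it. With 2 Itgb3-20 arrays, a floor of the signal that hides Itgb3, and 20.5% to 26.2% of probes above background, absence of a call does not show that the hairpins act alike.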
